A study of Mus musculus with 2 samples.

Results

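Ion and metal solute carriers move inorganic ions and trace metals across the membranes of epithelial cells. They were followed here in luminal cells of the mouse mammary gland that differ in the promoter activity of Tbx3, the gene of a transcriptional repressor. The genes were chosen by symbol alone, as probe sets paired with 1 gene of the Slc4, Slc8, Slc9, Slc11, Slc12, Slc20, Slc24, Slc26, Slc30, Slc34, Slc39, Slc40 or Slc41 family. Of 82 such genes in the RefSeq annotation, 55 were in the value table, on 99 probe sets, out of 13869 genes in all. Luminal cells (CD24+, CD49f-gated, after removal of dead, CD45+ and stromal cells) were sorted from pooled mammary glands of 3 virgin females, 5 months old and on an FVB background. All 3 mice were Tbx3-Venus-KI heterozygotes, in which the Venus fluorescent protein replaces the product of 1 Tbx3 allele and is driven by the Tbx3 promoter. Both sorted populations, luminal VenusHigh and luminal VenusLow, therefore carry a single working Tbx3 allele, and wild-type cells are no part of the comparison. Each population gave 200000 cells and 1 array, so no difference below has a replicate check, and no p-value can be given.

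In the lactating gland these carriers supply milk with zinc, phosphate and other ions, and in resting ducts they set cell volume, pH and metal content. Slc12 proteins couple chloride to sodium or potassium. Slc4 and Slc26 proteins carry bicarbonate, chloride or sulfate, Slc9 proteins exchange sodium for protons, and Slc8 and Slc24 proteins exchange sodium for calcium. Zinc enters the cytoplasm through Slc39 (ZIP) proteins and leaves it through Slc30 (ZnT) proteins. Iron leaves the cell through Slc40a1, and Slc41 proteins carry magnesium. The comparison asks which of these genes differ between luminal cells with high and with low Tbx3 promoter activity.

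The values are log2 array signals with a floor at a signal of 10. The table holds 12968 probe sets that are higher in VenusHigh cells, 16370 at the floor on both arrays and 0 that are lower in VenusHigh cells. Carriers higher in VenusLow cells are therefore not analysed here, and every difference lies at or above 0 by construction. The 27 carriers without a probe set of their own in the table, which include Slc34a2, Slc30a2, Slc20a1, Slc20a2, Slc11a2, Slc4a7, Slc26a4, Slc26a6 and Slc41a1, have no direction here. Median centring used the medians of probe sets with a signal of at least 100 on either array, and lowers each difference by 0.66. A smaller difference therefore has no settled sign. With no probe set lower in VenusHigh cells in the table, this shift could not have been negative. A negative value after centring is thus no evidence of a lower signal in VenusHigh cells. Probe sets of the same gene differed with a pooled SD of 0.31 over 1062 genes, which is a spread within these arrays and not between animals. Of 8 hormone-sensing markers, 2 (Prlr and Ly6a) are not analysed here. The other 6 (Esr1, Pgr, Foxa1, Tbx3, Cited1 and Prom1) were at least 4-fold higher in VenusHigh cells. Over all genes with a signal of at least 100, 8.58% met this. Tbx3 promoter activity defined the sort, and a marker lower in VenusHigh cells could not have been seen. Krt8, a luminal keratin, was at 13.22 and 13.13. None of the 9 alveolar markers had a probe set in the table. All 5 basal markers in the table, Krt14 and Acta2 among them, were at the floor on both arrays, as were the immune markers Ptprc and Cd3e. This covers only their probe sets in the table. A probe set of these genes lower in VenusHigh cells would be missing, so the absence of such cells is not shown. Of the stromal and endothelial markers, 0 of 6 reached a signal of 100, and the stromal marker Dcn had 64.6 in VenusHigh and 29.7 in VenusLow cells on the linear scale. Of the 21 basal, immune, stromal and endothelial markers 8 are not analysed here, so higher levels of them in VenusLow cells could not be seen. The part of such cells in the differences below was not tested. In a sorted population, fewer cells that express a gene and less RNA per cell cannot be told apart.

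Of the 55 carriers, 29 were at the floor on both arrays, 15 lay above it with signals from 11.4 to 86.2 in VenusHigh cells, and 11 reached a signal of 100. The 11 were Slc12a2 and 10 zinc carriers, 4 of the Slc30 and 6 of the Slc39 family. Over all genes, 3847 of 13869, or 27.7%, reached it. Just above that limit lay Slc30a6, with a signal of 141 in VenusHigh cells, and just below it Slc40a1, with 86.2, and Slc24a3, with 75.4. A 4-fold excess in VenusHigh cells was met by 1 of the 11 carriers, Slc12a2, and by 8.58% of the 3847 genes with such a signal. A 2-fold excess was met by 2 of the 11, Slc12a2 and Slc39a11, and by 21.6% of those genes. Both shares of the carriers rest on very few genes. The median difference of the 11 was 0.38 on the log2 scale, beside 0.46 for all 3847 genes, and 6 of the 11 lay below the median of all genes.

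**Figure D1:**
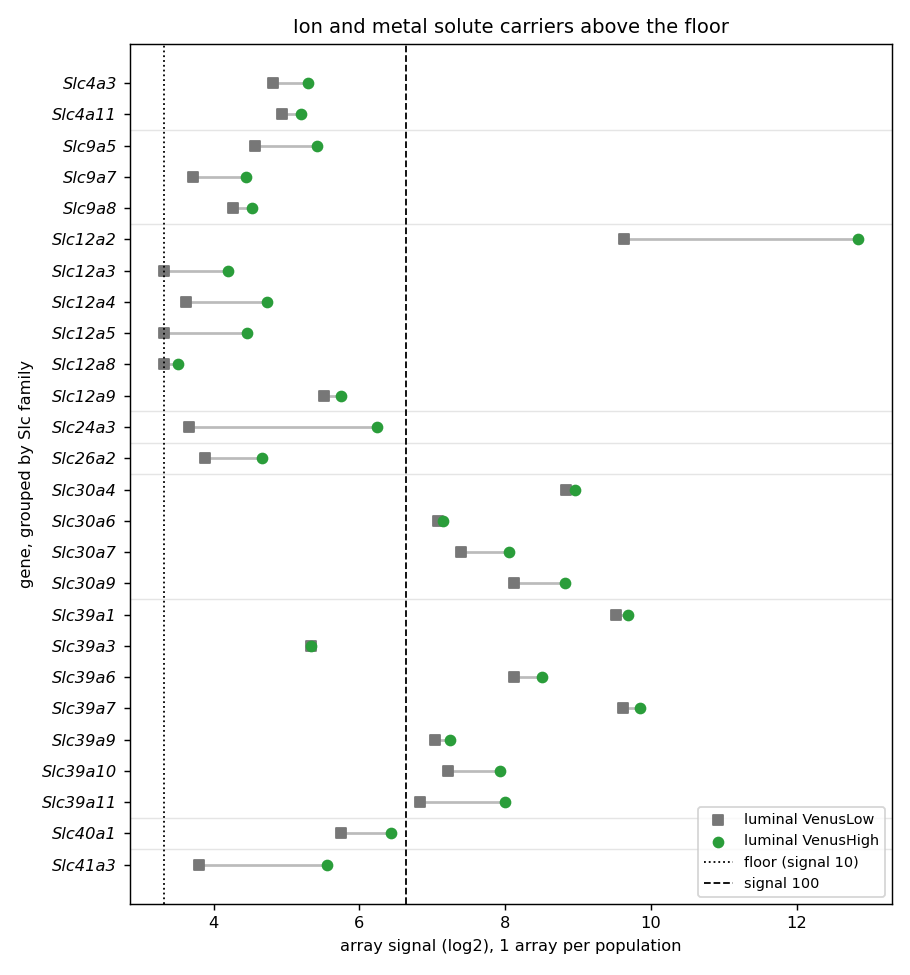
Array signal (log2, horizontal axis) of the 26 ion and metal solute carriers above the floor, grouped by Slc family (thin lines), in luminal VenusHigh cells (green circles) and VenusLow cells (grey squares). Each population has a single array, the floor is dotted and a signal of 100 is dashed, and Slc12a2 has the widest gap, from 9.63 to 12.84.

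Slc12a2 encodes NKCC1, the sodium-potassium-chloride cotransporter of the basolateral membrane that loads epithelial cells with chloride and restores their volume. Its log2 signal was 12.84 in VenusHigh and 9.63 in VenusLow cells, or 7313 and 794 on the linear scale. This is a 9.21-fold difference, or 3.20 on the log2 scale and 2.54 after median centring. The other probe sets of the gene had 11.93 and 8.06, a 14.7-fold difference, and 11.64 and a linear signal of 168 in VenusLow cells, a 19.0-fold difference. All 3 probe sets lay well above the floor on both arrays, so the difference does not rest on it, and all 3 differences exceeded the SD of 0.31 between probe sets. The platform annotation gives the same source sequence for all 3, and they are not independent measurements of the cells. Among the 3847 genes that reached a signal of 100, Slc12a2 ranked 170 by difference, above 95.6% of them.

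The rest of the Slc12 family lay below a signal of 100 or at the floor. Slc12a4, which encodes the potassium-chloride cotransporter KCC1, had log2 signals of 4.73 and 3.62 in VenusHigh and VenusLow cells. Slc12a5, the neuronal potassium-chloride cotransporter, had 4.46 in VenusHigh cells and lay at the floor in VenusLow cells. Slc12a3, the thiazide-sensitive cotransporter of the kidney, had 4.19 against the floor, and Slc12a9 had 5.75 and 5.51. Slc12a8 was near the floor on both arrays (3.51 in VenusHigh cells), and Slc12a1, the cotransporter of the kidney that loop diuretics block, was at it. With the floor raised to 100 all of these differences become 0. Slc12a7 is not analysed here. Of the family members in the table, Slc12a2 was therefore the only one with a signal of at least 100 in either population.

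**Figure D2:**
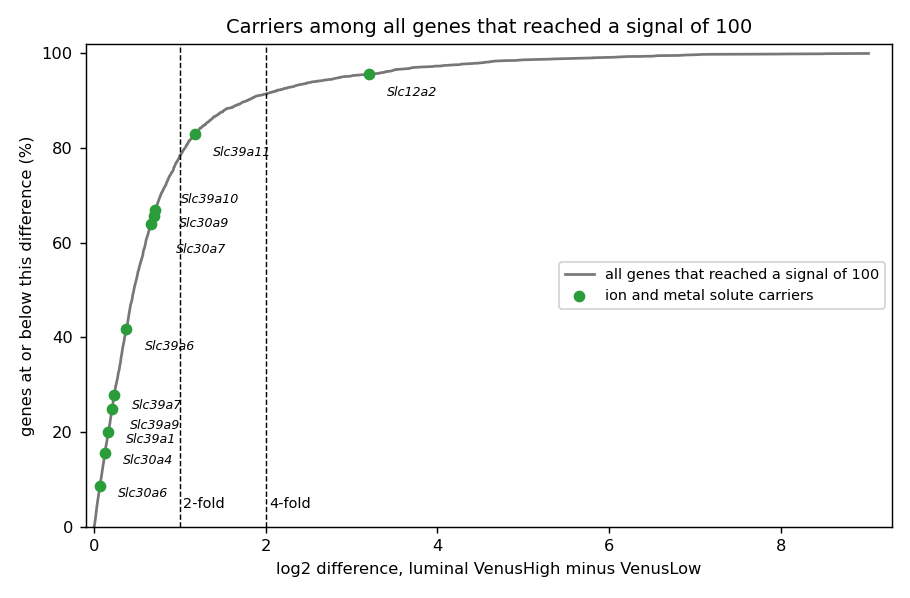
Share of the 3847 genes that reached a signal of 100 (vertical axis, %) at or below each log2 difference between VenusHigh and VenusLow cells (horizontal axis), with the 11 carriers as green points. Slc12a2 lies at 3.20 and Slc39a11 at 1.17, and the other 9 lie between 0.07 and 0.71, left of the dashed 2-fold line.

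The zinc carriers formed the other measured group, with 17 of 24 genes in the table and 10 at a signal of 100. Their median difference was 0.31 on the log2 scale, and 1 of the 10 passed a 2-fold excess in VenusHigh cells. Among the importers, Slc39a11 (ZIP11) had the widest gap, with linear signals of 255 in VenusHigh and 113 in VenusLow cells, a 2.25-fold difference that becomes 0.51 on the log2 scale after median centring. Its only probe set in the table has a name ending in _a_at, so it drops out where such probe sets are left out. Slc39a10 (ZIP10), a plasma membrane importer, had 7.93 and 7.21, a 1.64-fold difference, and its other probe set differed by 0.60 on the log2 scale at 4.71 and 4.11. These are the 2 importers whose difference stays above 0 after median centring, at 0.51 and 0.05.

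Slc39a6 encodes ZIP6, also called LIV-1, which was first found as an estrogen-induced gene of breast cancer cells. Its log2 signal was 8.50 in VenusHigh and 8.12 in VenusLow cells, a 1.30-fold difference that turns to -0.28 after median centring. Another of its probe sets had 5.55 and 5.41, a further one had 3.83 against the floor, and the last was at the floor on both arrays. In these cells Esr1, the estrogen receptor alpha gene, differed 7.91-fold. The difference of Slc39a6 lay below the median of the 3847 genes that reached a signal of 100. That median comes from a table without probe sets lower in VenusHigh cells. A link between Slc39a6 and Esr1 was not tested. Slc39a7 (ZIP7), which releases zinc from the endoplasmic reticulum, had 9.85 and 9.62, and the plasma membrane importer Slc39a1 (ZIP1) had 9.69 and 9.52. Slc39a9 (ZIP9) had 7.24 and 7.04 on 1 probe set and was at the floor on its 2 others. The differences of Slc39a7, Slc39a1 and Slc39a9 were between 0.17 and 0.23 on the log2 scale, within the SD between probe sets, and all 3 are negative after median centring. Slc39a3 had the same signal in both populations to the precision shown, 5.34 on the log2 scale, below a signal of 100.

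The exporters of the Slc30 family split into a pair with higher signals in VenusHigh cells and a pair that were near-equal. Slc30a9 (ZnT9), which exports zinc from mitochondria, had log2 signals of 8.82 in VenusHigh and 8.12 in VenusLow cells, a 1.62-fold difference. Slc30a7 (ZnT7), which fills the Golgi with zinc, had 8.05 and 7.39, a 1.58-fold difference, and its other probe set differed by 0.60 at 7.63 and 7.03. After median centring these differences shrink to 0.03 and 0.00. Slc30a4 (ZnT4), which carries zinc toward milk and is mutated in the lethal milk mouse, had 8.95 and 8.83, or linear signals of 496 and 455. Slc30a6 (ZnT6), a partner subunit in the secretory pathway, had 7.14 and 7.07. The differences of 0.13 and 0.07 for Slc30a4 and Slc30a6 lie within the SD of 0.31 between probe sets and have no settled sign. Slc30a8, the insulin granule transporter, and Slc30a10 lay at the floor in both populations, and Slc30a1, Slc30a2, Slc30a3 and Slc30a5 are not analysed here.

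Promoter sequences of zinc carriers are shown because the zinc-sensing factor MTF1 binds a metal response element, by which some zinc genes respond to the metal. The core of this element was searched as TGCACNC or TGCGCNC on both strands of RefSeq windows (build GRCm38.p6) from 250 bases before to 50 after a gene start. For 9 of the 10 zinc carriers that reached a signal of 100, 11 windows were searched, and none was read for Slc39a6. A match was in 3 of the 11 windows, both of Slc39a11 and the only one of Slc30a4, and in 25.7% of all 32851 windows. The palindromic estrogen response element GGTCANNNTGACC was in 0 of the 11 windows and in 0.0700% of all windows, so a window without it is the usual case. The upstream window of Slc39a11, at chr11:113650043-113650342 (minus strand), and that of Slc30a4, at chr2:122702614-122702913 (minus strand), follow, with matches to the metal response core in capitals.
Slc39a11: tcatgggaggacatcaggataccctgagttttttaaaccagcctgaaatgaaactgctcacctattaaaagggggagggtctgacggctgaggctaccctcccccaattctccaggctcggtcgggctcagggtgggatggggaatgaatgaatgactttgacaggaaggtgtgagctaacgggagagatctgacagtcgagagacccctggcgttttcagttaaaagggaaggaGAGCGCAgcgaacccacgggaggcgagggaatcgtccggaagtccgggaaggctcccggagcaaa
Slc30a4: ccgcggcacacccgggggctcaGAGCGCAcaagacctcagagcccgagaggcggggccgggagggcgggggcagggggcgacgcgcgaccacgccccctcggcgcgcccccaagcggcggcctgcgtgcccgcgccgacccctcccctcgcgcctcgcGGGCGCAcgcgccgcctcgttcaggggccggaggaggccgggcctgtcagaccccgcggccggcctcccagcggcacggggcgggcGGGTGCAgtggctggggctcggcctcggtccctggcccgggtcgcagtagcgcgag
Slc39a11, with 1 match in the window shown and 1 in its other window, differed by 1.17 on the log2 scale between the populations, and Slc30a4, with 3 matches, by 0.13. A match is a description of letters, and binding was not measured.

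**Figure D3:**
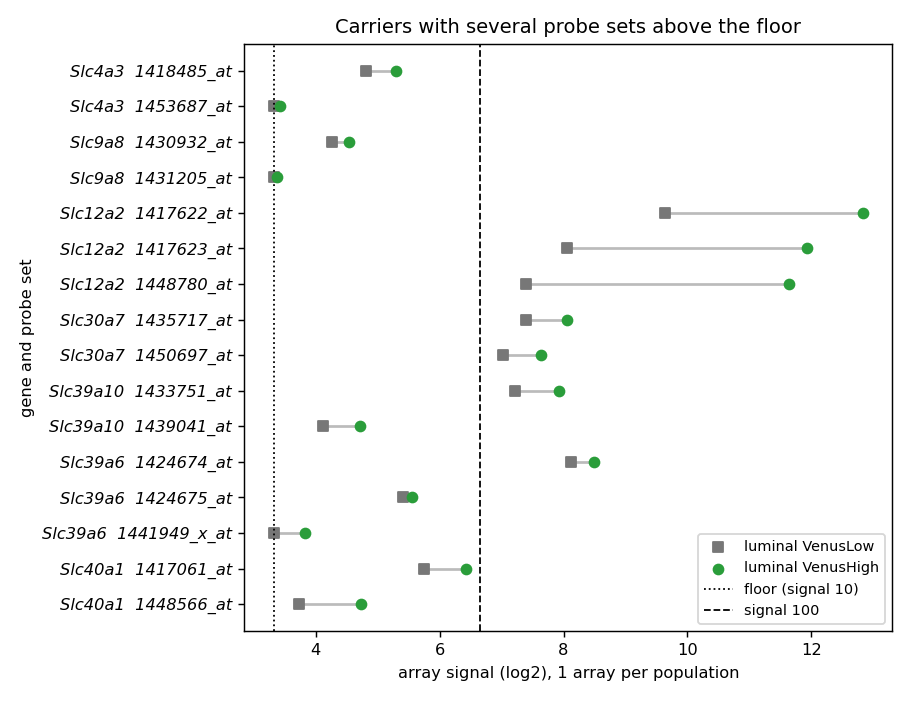
Array signal (log2, horizontal axis) of each probe set above the floor, for the 7 carriers with at least 2 such probe sets, in VenusHigh cells (green circles) and VenusLow cells (grey squares). The 3 probe sets of Slc12a2 differ by 3.20, 3.87 and 4.24, and those of Slc30a7 by 0.66 and 0.60.

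Of the carriers of calcium, magnesium, iron and anions, 0 reached a signal of 100, and their differences depend on the floor. Slc24a3, which encodes the potassium-dependent sodium-calcium exchanger NCKX3, had log2 signals of 6.24 in VenusHigh and 3.66 in VenusLow cells, or 75.4 and 12.7 on the linear scale. It is the single carrier below a signal of 100 with a difference of at least 4-fold (2.57 on the log2 scale), and it is counted with a signal minimum of 50. Slc41a3, a magnesium carrier, had 5.55 and 3.80 on 1 probe set and was at the floor on the other. With Slc12a4 and Slc12a5, these were 4 of the 15 carriers in this range with a difference of at least 2-fold. All 4 lay at or near the floor in VenusLow cells. The share over all genes in this range was not computed, so the count has nothing to be compared with. Slc40a1, ferroportin, the exporter of cellular iron, had 6.43 and 5.75 on 1 probe set and 4.74 and 3.73 on the other, and the first difference of 0.68 becomes 0.02 after median centring. The sulfate carrier Slc26a2 had 4.67 and 3.88.

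Of the sodium-proton exchangers, Slc9a5 had 5.42 and 4.56, Slc9a7, which acts in the trans-Golgi, 4.44 and 3.71, and Slc9a8 4.53 and 4.26. Of the Slc4 family, the anion exchanger Slc4a3 had 5.29 and 4.82 and Slc4a11 had 5.19 and 4.93. In this range of signals no difference was read as a change. A second probe set paired with Slc9a7 and another gene was left out.

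The 29 carriers at the floor on both arrays were the 3 Slc8 sodium-calcium exchangers, the bicarbonate and anion carriers Slc4a1, Slc4a4, Slc4a5, Slc4a8, Slc4a9 and Slc4a10, the exchangers Slc9a3, Slc9a4 and Slc9a9, and Slc12a1. The others were Slc24a1, Slc24a2, Slc24a4, Slc26a1, Slc26a3, Slc26a5, Slc26a7, Slc26a10, Slc30a8, Slc30a10, Slc34a1, Slc34a3, Slc39a2, Slc39a5, Slc39a8 and Slc39a12. Among them are the band 3 protein of red cells (Slc4a1), prestin of outer hair cells (Slc26a5) and the phosphate carriers of the kidney (Slc34a1 and Slc34a3). The statement covers the probe sets given in the table, and a probe set lower in VenusHigh cells would not be among those.

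Genes that work with these carriers were read from 3 lists, with 60 of 97 genes in the table and 22 at a signal of 100. A 4-fold excess in VenusHigh cells was met by 1 of the 22, beside 8.58% of all genes, and a 2-fold excess by 7, beside 21.6%. Of the 7, 4 (Fxyd2, Mtf1, Steap1 and Steap2) reached a signal of 100 through VenusHigh cells alone, so the limit itself favoured a difference in them. With the floor raised to 100, 4 of the 22 had a 2-fold excess (Fxyd2, Mt2, Wnk1 and Cab39l), beside 15.1% of all genes. The gene with a 4-fold excess was Fxyd2, which encodes the gamma subunit of the sodium-potassium pump. Fxyd2 had a log2 signal of 9.41 in VenusHigh cells and lay at the floor in VenusLow cells, so it was at least 67.9-fold higher, and raising the floor to 100 leaves a log2 difference of 2.76. Its other probe sets above the floor had 8.96 against the floor and 8.69 against 3.37, and a further probe set was at the floor on both arrays. Atp1b3, a beta subunit of the same pump, had 9.65 and 9.15. The beta subunit gene Atp1b1 was at the floor on its only probe set in the table. A probe set of it lower in VenusHigh cells would not be there, so its expression is not settled.

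Of the kinases that regulate Slc12 carriers, the only one with a signal of 100 was Wnk1. Wnk1, the kinase at the head of the pathway that phosphorylates NKCC1, had log2 signals of 10.81 in VenusHigh and 9.74 in VenusLow cells, a 2.10-fold difference, and its next probe set differed by 0.57. Cab39l, which encodes a scaffold of the downstream kinases, had 8.40 and 7.34, a 2.09-fold difference, and Wnk4 had 6.10 against the floor, below a signal of 100. Of the 32 genes of this list 13 are not analysed here, the kinases Stk39 and Oxsr1 among them. The endoplasmic reticulum calcium pump Atp2a2 had 11.78 and 11.27 and the secretory pathway pump Atp2c2 had 7.39 and 6.85. After median centring, 1 of the 22 partner genes, Fxyd2, stays at least 2-fold higher, beside 10.9% of all genes that reached a signal of 100.

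Of the zinc and metal storage genes, 22 were in the table and 10 had a signal of at least 100. A 2-fold excess in VenusHigh cells was met by 4 of the 10, Mt2, Mtf1, Steap1 and Steap2, beside 21.6% of all genes, and with the floor raised to 100 by Mt2 alone. Mt2, a metallothionein that binds zinc and copper, had log2 signals of 11.90 and 10.28, a 3.07-fold difference that is 0.96 on the log2 scale after median centring. Mt1, its neighbour in the genome and in function, had 11.61 and 10.93, a 1.60-fold difference. Mtf1, the zinc-sensing transcription factor, differed by 1.17 on the log2 scale on 1 probe set, and the 2 others above the floor differed by 0.15. The metalloreductase genes Steap1 and Steap2 had 6.80 and 5.37 and 7.37 and 6.13. Of the copper carriers, Slc31a1 differed by 0.46, and Atp7a by 0.42 on its brighter probe set and by 1.26 on the other. Atp7b, another copper carrier, had 6.26 against the floor, below a signal of 100. Of the carbonic anhydrases and acid-base genes, 19 were in the table, 5 had a signal of at least 100, and 0 of the 5 met a 2-fold excess (median 0.24). Among these 5 was Ezr, encoding the membrane-cytoskeleton linker ezrin, at 12.59 and 11.84, while 6 of the 7 carbonic anhydrases in the table, Car12 among them, were at the floor on both arrays. Of the 29 genes of this list 10 are not analysed here, Car2 and Car9 among them. A probe set of Car12 lower in VenusHigh cells would be missing too, so its expression is not settled.

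**Figure D4:**
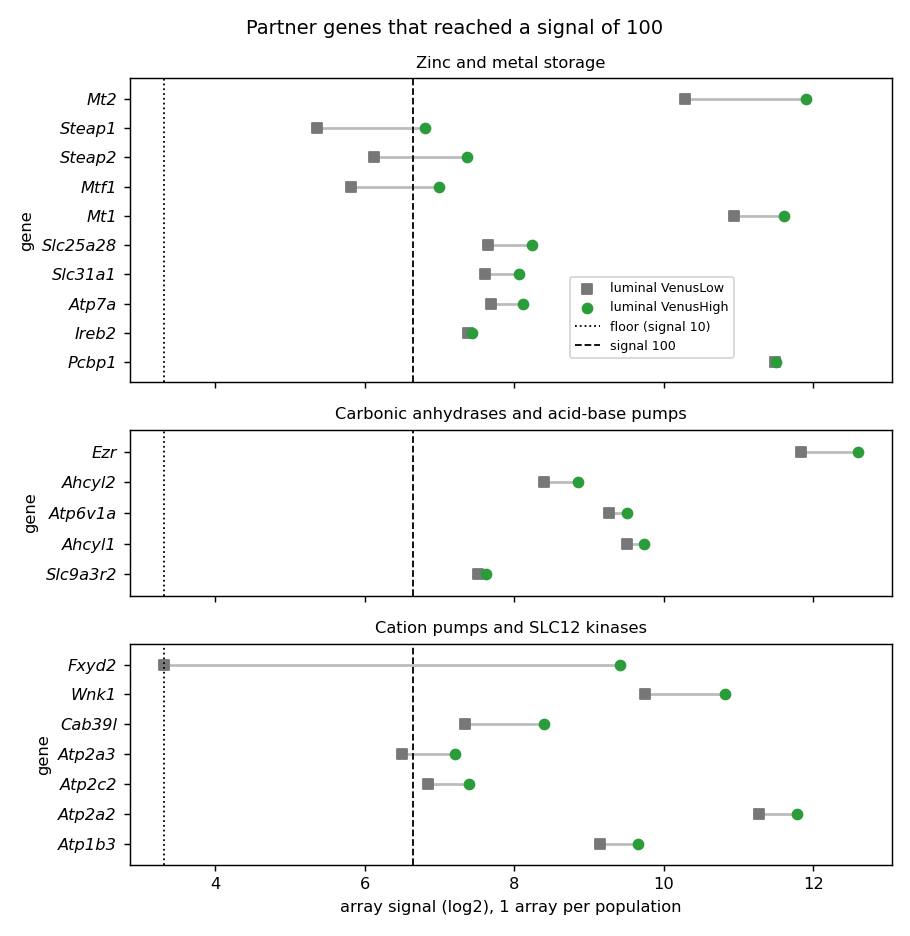
Array signal (log2, horizontal axis) of the 22 partner genes that reached a signal of 100, in 3 panels by list and ordered by difference, in VenusHigh cells (green circles) and VenusLow cells (grey squares), 1 array per population. Fxyd2 has the widest gap, from the floor to 9.41, followed by Mt2, from 10.28 to 11.90.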

How the data were processed

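RNA of the sorted luminal populations, from a pool of 3 mice, was hybridized to 1 GeneChip Mouse Genome 430 2.0 array each, from 250 ng of total RNA with an integrity number above 9.4 (per the labels). The authors deposited log2 values, transformed, normalized and centred within each sample in BRB Array. MAS5 is listed in the submitters' processing notes. How the arrays were scaled to each other is not stated in the sources read. Of 29338 probe sets, 22223 are paired with 1 gene in the platform annotation, 602 with several and 6513 are unlisted. Symbols were updated by gene identifier with the RefSeq table (GRCm38.p6). A gene's value was that of its probe set with the greatest mean over both arrays. Differences are VenusHigh minus VenusLow. With 1 array per population no test was run, and a gene was counted at a 4-fold or 2-fold excess where its higher signal was at least 100. The text names each carrier that reached 100 and a fixed set of carriers of known roles, and others to account for every gene. The carriers, partner lists and markers were chosen with earlier results of these data known. Alternatives were median centring, quantile normalization, floors at 32 and 100, the median of probe sets, leaving out the _x_at, _s_at and _a_at types of probe set, signal minimums of 50, 200 or none, and 8-fold. Columns of other samples numbered 0. Python 3.11.15, numpy 2.4.6, pandas 2.3.3 and matplotlib 3.10.9 were used, and the counting was tested on simulated data.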

Additional observations from a re-analysis of the deposited data

How the results depend on the processing

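Slc12a2 was counted as at least 4-fold higher under every alternative listed, at 8-fold too, and its log2 difference ranged from 2.54 to 3.87. The 4-fold count rose to 2, with Slc24a3, at a signal minimum of 50 (of 14 carriers) and with none (of 55). The shares over all genes were 8.67% and 3.25%. The 2-fold count was 1 of 11 under median centring and under quantile normalization, beside 10.9% and 9.89% of all genes. It was 1 of 9, beside 23.1%, with the _x_at, _s_at and _a_at types of probe set left out. Each of these settings ends the call of Slc39a11. The 2-fold count was 3 of 14 at a signal minimum of 50 (with Slc24a3), beside 21.9% of all genes. With no signal minimum it was 6 of 55, beside 9.93%. The median of the carriers was -0.28 after median centring and -0.28 after quantile normalization, where that of all genes was -0.20 and -0.26, and 6 of the 11 carriers became negative under both. Both settings act on a table without probe sets lower in VenusHigh cells, so they make some differences negative by construction. These negative values are no evidence of lower signals in VenusHigh cells. With no signal minimum the median of the carriers was 0, since most carriers lie at the floor. Over all genes, the count at least 4-fold higher was 330. It fell to 196 under quantile normalization and to 169 when the floor was raised to 100, and 183 genes passed 8-fold. No paired analysis was possible because each population has 1 array, and for the same reason no array could be left out. Signals near the floor limit the calcium, magnesium and iron carriers and the Slc4 and Slc26 anion carriers.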
